A study of Mus musculus with 12 samples.

Results

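The claudin genes whose proteins line particular parts of the nephron were followed through 12 mouse kidney libraries. They are Cldn1, Cldn2, Cldn3, Cldn4, Cldn7, Cldn8, Cldn10, Cldn11, Cldn16 and Cldn19. Members were chosen by gene symbol, which gave 10 of the 32 numbered claudin symbols and 10 of 24421 gene symbols in the deposited tables, or 17 of 34600 transcript rows. Cldn10 has 6 rows, Cldn7 and Cldn19 have 2 each, and the other members have 1. RNA was taken from whole kidneys of C57BL/6 male mice at 6 weeks old, in 4 groups of 3 libraries. WT baseline and Tet2-/- baseline kidneys came from healthy control mice. WT IR and Tet2-/- IR kidneys had their pedicle clamped for 60 min and were taken 24 h after reperfusion. The Tet2-/- mice descend from heterozygous matings, so that the allele is present in every cell type and not in the tubule alone. No sham-operated library was analysed here, so the IR comparison also includes the surgery and the loss of the left kidney.

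Tight junctions seal the gap between epithelial cells, and claudins are the membrane proteins that set which ions and how much water pass through that gap. In the kidney each segment has its own claudins. The proximal tubule is leaky and carries Cldn2, a channel for cations and water. The thick ascending limb carries Cldn16 and Cldn19, which are needed for magnesium and calcium uptake. Cldn10, set here against both this limb and the proximal tubule, is made from alternative first exons as a cation or an anion channel. The collecting duct is tight and carries Cldn4, Cldn7 and Cldn8, while Cldn1 marks the parietal cells of Bowman's capsule. Tet2 oxidises 5-methylcytosine at CpG sites, an early step of DNA demethylation.

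The genes are spread over the mm9 genome, with a pair of neighbours on chromosome 5 and another on chromosome 16. Cldn3 (chr5:135462084-135463346, plus strand) and Cldn4 (chr5:135420993-135422804, minus strand) are 39280 bases apart, and Cldn1 (chr16:26356732-26371925, minus strand) and Cldn16 (chr16:26463221-26482850, plus strand) are 91296 bases apart. Cldn8 lies further along at chr16:88561071-88563428 on the minus strand. Cldn2 is at chrX:136335347-136345927, Cldn7 at chr11:69778923-69781388, Cldn10 at chr14:119187093-119273747, Cldn11 at chr3:31048842-31063248 and Cldn19 at chr4:118928046-118935043, all on the plus strand.

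Library totals, with 1 row per symbol, ran from 51007366 to 107969888 counts, and every member had at least 2663 counts summed over the 12 libraries. Tet2 itself had 7.58 ± 1.47 FPKM (SD, n = 3) in WT and 12.1 ± 3.998 FPKM in Tet2-/- baseline libraries, and 5.72 ± 3.13 and 2.53 ± 0.723 FPKM in WT and Tet2-/- IR libraries. The log2 fold change between genotypes was 0.76 at baseline (edgeR adjusted p = 0.321) and −1.28 after IR (adjusted p = 0.0690), over the whole transcript including any exons the allele keeps. The transcript was not lower at baseline, so the knockout is named here by label only, and so is each direction between genotypes. Markers of the main segments were present, with a mean over all libraries of 952 FPKM for Slc34a1 (proximal tubule), 1340.2 FPKM for Umod (thick ascending limb) and 374 FPKM for Aqp2 (collecting duct). The summed FPKM of 10 adipocyte genes was 152 and 327 in WT baseline replicates 2 and 3 and 612 in Tet2-/- IR replicate 3, against 16.1 to 114 in the rest. Tet2-/- IR replicate 3 also had the lowest summed level of the 10 thick ascending limb markers, 464 FPKM. In whole kidney RNA, fewer cells of a segment and less RNA per cell cannot be told apart.

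At WT baseline Cldn2 and Cldn10 stood far above the rest in FPKM, which is scaled for transcript length. Cldn2 was at 126, 82.9 and 202 FPKM in replicates 1, 2 and 3, and Cldn10 at 105, 115 and 119.6 FPKM. Their ranges overlapped, and both lay above Cldn8, the next in order, at 18.7 to 31.5 FPKM. Cldn4 (14.2 to 38.1 FPKM) overlapped Cldn8. Cldn3, a sealing claudin of several tubule segments, had 12.6 ± 1.74 FPKM (SD, n = 3) and overlapped Cldn7, at 12.4 ± 1.45 FPKM. Cldn19 (8.65 ± 1.21 FPKM), Cldn16 (6.30 ± 1.12 FPKM), Cldn11 (3.85 ± 4.27 FPKM) and Cldn1 (2.94 ± 1.33 FPKM) followed. Cldn19 lay above Cldn16 in all 3 WT baseline libraries, whereas Cldn16, Cldn11 and Cldn1 overlapped their neighbours. The order in the baseline libraries labelled Tet2-/- was similar at the top, with Cldn10 at 107 ± 16.5 FPKM and Cldn2 at 104 ± 22.5 FPKM.

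The order was different after IR. In WT IR libraries Cldn2 stood alone at 205 to 214 FPKM and Cldn10 followed at 64.7 to 80.5 FPKM. In the IR libraries labelled Tet2-/-, Cldn4 (99.8 to 140.0 FPKM) and Cldn2 (105 to 124 FPKM) led with overlapping ranges. Cldn7, Cldn1, Cldn3 and Cldn10 came next, each overlapping its neighbour, at means of 41.0, 32.8, 30.2 and 25.7 FPKM.

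**Figure D1:**
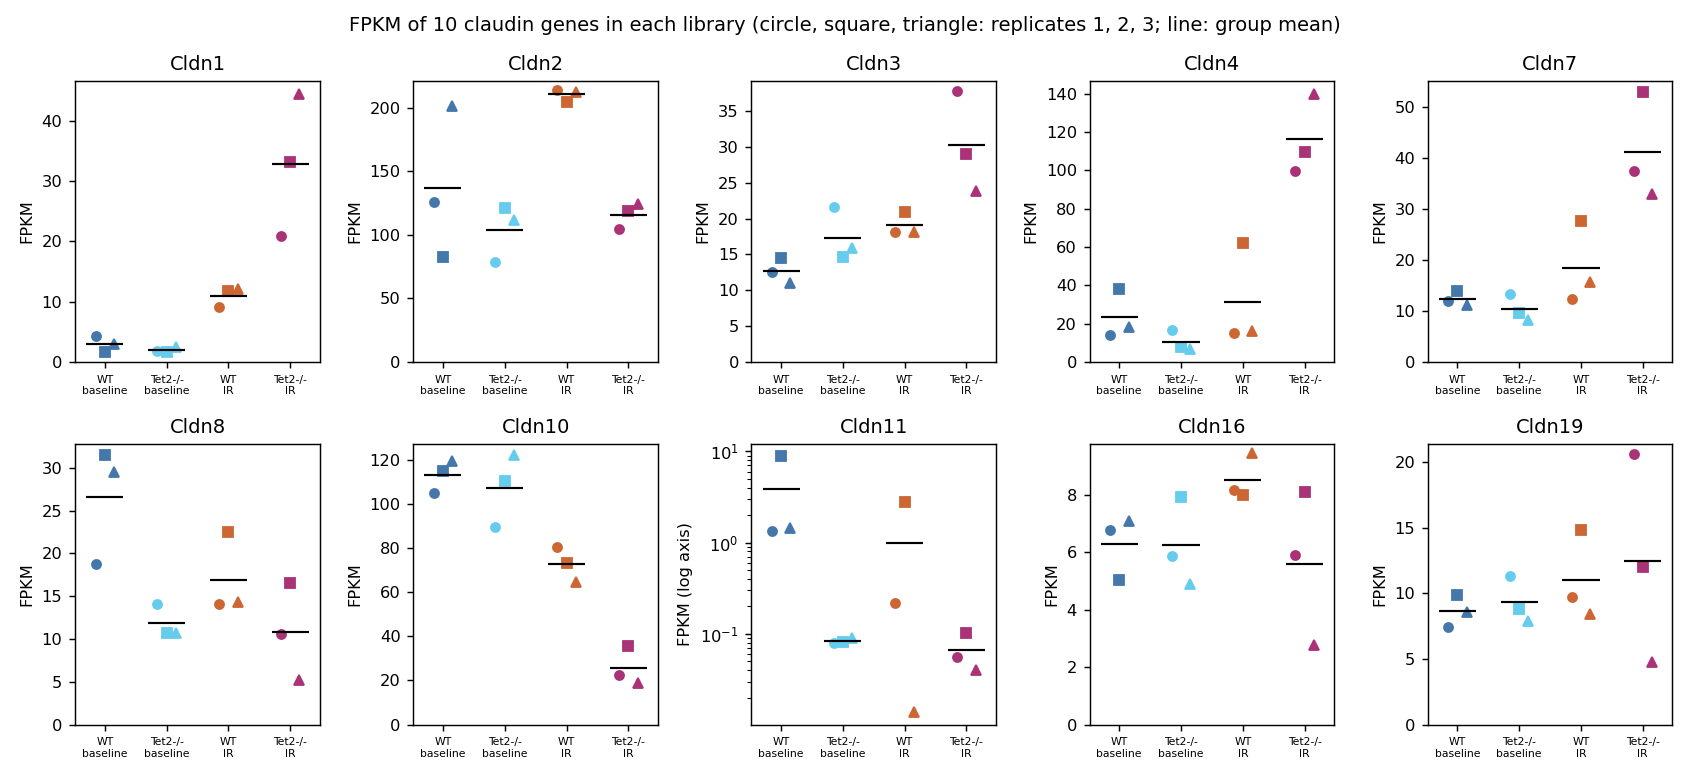
FPKM of the 10 claudins (vertical axes, linear except a log axis for Cldn11) in the 4 groups, with circles, squares and triangles for replicates 1, 2 and 3 and a line at the group mean. Cldn1, Cldn4 and Cldn7 are highest and Cldn10 lowest in the 3 IR libraries labelled Tet2-/-, while WT IR replicate 2 stands high for Cldn4, Cldn7 and Cldn11.

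The summed FPKM of the 10 claudins was 347 ± 56.1 (SD, n = 3) in WT baseline, 279 ± 22.4 in Tet2-/- baseline, 401 ± 41.8 in WT IR and 391 ± 28.2 in Tet2-/- IR libraries. The members made up 90.1% to 94.8% of the FPKM of all 32 claudins in every library. Of the summed FPKM of the 10 members, Cldn10 held 33.0% ± 3.49 (SD, n = 3) at WT baseline, 38.3% ± 3.34 at Tet2-/- baseline, 18.3% ± 2.50 in WT IR and 6.54% ± 1.90 in Tet2-/- IR libraries. Cldn4 held 6.97% ± 4.24, 3.87% ± 2.42, 7.38% ± 5.62 and 29.8% ± 4.76 in the same order. Cldn2 made up 53.1% ± 6.40 in WT IR but 29.6% ± 1.46 in Tet2-/- IR libraries, against 38.6% ± 11.8 and 37.0% ± 5.35 at baseline. The share of Cldn1 was 0.51% to 1.39% in the baseline libraries, and was 2.37% to 3.26% in WT IR and 5.79% to 11.2% in Tet2-/- IR libraries. With 3 libraries against 3, a two-sided exact permutation test cannot give a p below 0.1, and every difference named here between groups that did not overlap had that p (0.222 after Benjamini-Hochberg adjustment over 40 tests).

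**Figure D2:**
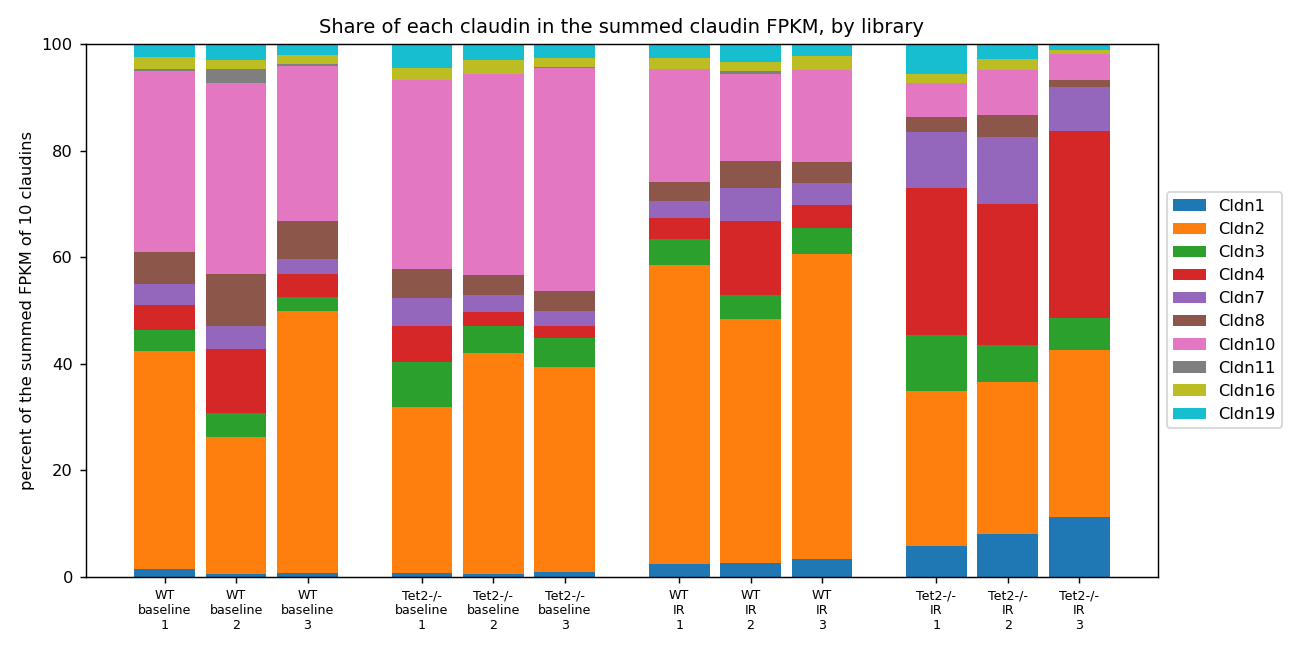
Stacked bars of the share of each claudin (percent of the summed FPKM of the 10 members, vertical axis) in each of 12 libraries, grouped by genotype and treatment. Cldn10 shrinks from 29.1% or more at baseline to 4.79% to 8.57% in the IR libraries labelled Tet2-/-, where Cldn4 takes 26.4% to 35.2%.

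The first comparison asked how the WT kidney changed 24 h after IR. Cldn1 rose, and no other member passed both limits, which were 0.05 for the adjusted p and a log2 fold change beyond 1 in either direction. Counts were tested with edgeR's quasi-likelihood test over 16015 genes, of which 1.46% were called higher and 0.887% lower. All 10 members passed the filter on low counts in each comparison. Their median log2 fold change was 0.35, against −0.03 over all genes. Cldn1 was at 4.29, 1.63 and 2.90 FPKM at WT baseline and 9.04, 11.7 and 12.1 FPKM in WT IR libraries, so the groups did not overlap. Its log2 fold change was 1.84 (SE 0.35, edgeR adjusted p = 0.0445). This call was lost when WT baseline replicate 1, 2 or 3 or WT IR replicate 2 or 3 was left out, at log2 fold changes of 1.56 to 2.21 and edgeR adjusted p values of 0.0584 to 0.128. Adding the mean log2(FPKM + 0.1) of the 10 adipocyte genes as a covariate gave a log2 fold change of 1.47 (edgeR adjusted p = 0.324).

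Cldn10 was lower in every WT IR library than in every WT baseline library, at 80.5, 73.3 and 64.7 FPKM. Its log2 fold change of −0.70 (SE 0.12, edgeR adjusted p = 0.0324) passed the p limit but not the fold limit. In TMM-scaled counts Cldn1, Cldn3 and Cldn16 were above and Cldn10 below without overlap, where 14.8% and 14.5% of all tested genes were. Cldn3 had 18.1 to 20.9 FPKM in WT IR libraries (log2 fold change 0.53, edgeR adjusted p = 0.0835) and Cldn16 had 7.98 to 9.44 FPKM (0.38, adjusted p = 0.332). Deviations from the group means correlated between same-numbered WT baseline and WT IR libraries. The study's methods describe separate mice for baseline and for IR, so the number does not pair animals. With the replicate number as a block Cldn11 was also called lower (log2 fold change −3.00, edgeR adjusted p = 0.0429). Without the block it was at −2.04 (edgeR adjusted p = 0.440). Replicate 2 was its highest library in both groups, at 8.78 FPKM in WT baseline and 2.76 FPKM in WT IR.

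By IR in the libraries labelled Tet2-/- 4 members were called. Cldn1, Cldn4 and Cldn7 rose and Cldn10 fell, that is 3 of 10 members higher and 1 lower, against 12.7% and 11.6% of 16359 genes tested. The median log2 fold change of the members was 0.02, and 0.04 over all genes. Cldn1 was at 1.87, 1.61 and 2.49 FPKM at baseline and 20.9, 33.1 and 44.5 FPKM after IR. That is a log2 fold change of 3.80 (SE 0.34, edgeR adjusted p = 0.000258). Cldn4, which with Cldn8 forms a chloride path in the collecting duct, was at 16.9, 7.63 and 6.86 FPKM and then at 99.8, 109.9 and 140.0 FPKM. Its log2 fold change was 3.24 (SE 0.37, edgeR adjusted p = 0.000625). Cldn7, a claudin also found along the lateral membrane, was at 13.4, 9.65 and 8.20 FPKM and then at 37.4, 52.8 and 32.9 FPKM, a log2 fold change of 1.71 (SE 0.21, edgeR adjusted p = 0.000766). No library of one group reached into the other for these genes.

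Cldn10 fell from 89.6, 110.5 and 122 FPKM to 22.6, 35.6 and 19.1 FPKM, a log2 fold change of −2.34 (SE 0.23, edgeR adjusted p = 0.000351). In TMM-scaled counts 4 members, Cldn1, Cldn3, Cldn4 and Cldn7, lay above and Cldn10 below without overlap, where 29.5% and 27.3% of all tested genes did. Cldn3 had a log2 fold change of 0.54 (SE 0.20, edgeR adjusted p = 0.0644). Cldn2, Cldn8, Cldn11, Cldn16 and Cldn19 had log2 fold changes between −0.61 and 0.15 and edgeR adjusted p values from 0.286 to 0.802. Each of the 4 calls held under all 18 alternative settings tried.

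Between genotypes at baseline no member was called by edgeR, where 0.0124% of 16086 genes were higher and 0.0% lower. In TMM-scaled counts Cldn3 lay above and Cldn8 and Cldn11 below in the libraries labelled Tet2-/-, where 7.93% and 10.8% of genes did. Of the 10 members, Cldn4, Cldn8, Cldn11 and Cldn3 had an unadjusted p under 0.05, and DESeq2 and edgeR's exact test each called Cldn8 and Cldn11 lower. The shares of all genes that DESeq2 and the exact test called are not set beside these calls, which describe the members alone. Cldn3 was at 12.5, 14.4 and 10.96 FPKM in WT and 21.6, 14.6 and 15.8 FPKM in the libraries labelled Tet2-/- (log2 fold change 0.55, SE 0.18, edgeR adjusted p = 0.326). Cldn8 was at 18.7, 31.5 and 29.5 FPKM and at 14.1, 10.7 and 10.8 FPKM (log2 fold change −1.08, SE 0.21, edgeR adjusted p = 0.206). Cldn11, a claudin best known from Sertoli cells and myelin, had 1.34, 8.78 and 1.44 FPKM in WT baseline replicates 1, 2 and 3 and 0.079 to 0.091 FPKM in those labelled Tet2-/-. Its log2 fold change was −5.42 (SE 0.88, edgeR adjusted p = 0.206). Cldn4 had a log2 fold change of −1.09 (SE 0.45, edgeR adjusted p = 0.415), and its groups overlapped. The median log2 fold change of the members was −0.23, and 0.00 over all genes, of which 1891 had an unadjusted p under 0.05.

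After IR 2 members differed between genotypes. Cldn1 was higher and Cldn10 lower in the libraries labelled Tet2-/-, that is 1 of 10 members each way, against 2.3% and 3.85% of 16186 genes tested, with a median log2 fold change of −0.33 for the members and 0.04 for all genes. Cldn1 had 9.04 to 12.1 FPKM in WT IR and 20.9 to 44.5 FPKM in Tet2-/- IR libraries, a log2 fold change of 1.49 (SE 0.31, edgeR adjusted p = 0.0313). Leaving out WT IR replicate 1, 2 or 3 or Tet2-/- IR replicate 2 ended this call, at log2 fold changes of 1.36, 1.49, 1.63 and 1.54 and edgeR adjusted p values of 0.108, 0.0729, 0.0695 and 0.0672. Cldn10 had 64.7 to 80.5 FPKM and 19.1 to 35.6 FPKM, a log2 fold change of −1.61 (SE 0.20, edgeR adjusted p = 0.0114), and kept its call under every alternative tried.

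Cldn2 was at 214, 205 and 213 FPKM in WT IR and 105, 119 and 124 FPKM in Tet2-/- IR libraries. Its log2 fold change of −0.96 (SE 0.18, edgeR adjusted p = 0.0236) stopped short of the fold limit. Cldn4 and Cldn7 showed how much 1 library could weigh. Cldn4 was at 15.04, 62.2 and 16.1 FPKM in WT IR libraries, and Cldn7 at 12.3, 27.5 and 15.6 FPKM, so that replicate 2 was high for both. Their log2 fold changes were 1.86 (SE 0.54, edgeR adjusted p = 0.0731) and 1.05 (SE 0.29, adjusted p = 0.0628). Without WT IR replicate 2 they were 2.77 (edgeR adjusted p = 0.0131) and 1.39 (adjusted p = 0.0287). DESeq2, edgeR's exact test and a fit over all 12 libraries called both. How many of all genes these alternatives called is not given here. In TMM-scaled counts Cldn1, Cldn3, Cldn4 and Cldn7 lay above and Cldn2, Cldn10 and Cldn16 below without overlap, where 17.5% and 18.5% of all tested genes did.

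The difference between the IR effects of the genotypes was tested as an interaction over all 12 libraries at an adjusted p under 0.05. Cldn1 and Cldn4 had a higher and Cldn10 a lower IR effect in the libraries labelled Tet2-/-, that is 2 and 1 of 10 members, against 3.79% and 5.39% of 16741 genes. The interaction was 1.999 on the log2 scale for Cldn1 (SE 0.51, edgeR adjusted p = 0.0340), 2.96 for Cldn4 (SE 0.79, adjusted p = 0.0401) and −1.60 for Cldn10 (SE 0.25, adjusted p = 0.00558). For Cldn7 it was 1.24 (SE 0.37, edgeR adjusted p = 0.0608), and with the replicate number within each genotype as a block it passed at 1.32 (edgeR adjusted p = 0.0245). Cldn10 passed with each of the 12 libraries left out. Cldn1 passed only when the library left out was WT baseline replicate 2, WT IR replicate 2 or Tet2-/- IR replicate 1. Cldn4 passed only when it was WT baseline replicate 1, Tet2-/- baseline replicate 1 or WT IR replicate 2. Their interactions then ranged over all 12 omissions from 1.63 to 2.24 and from 2.38 to 3.90, with edgeR adjusted p values up to 0.0834 and 0.103. Over all genes the median interaction was 0.10 on the log2 scale.

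**Figure D3:**
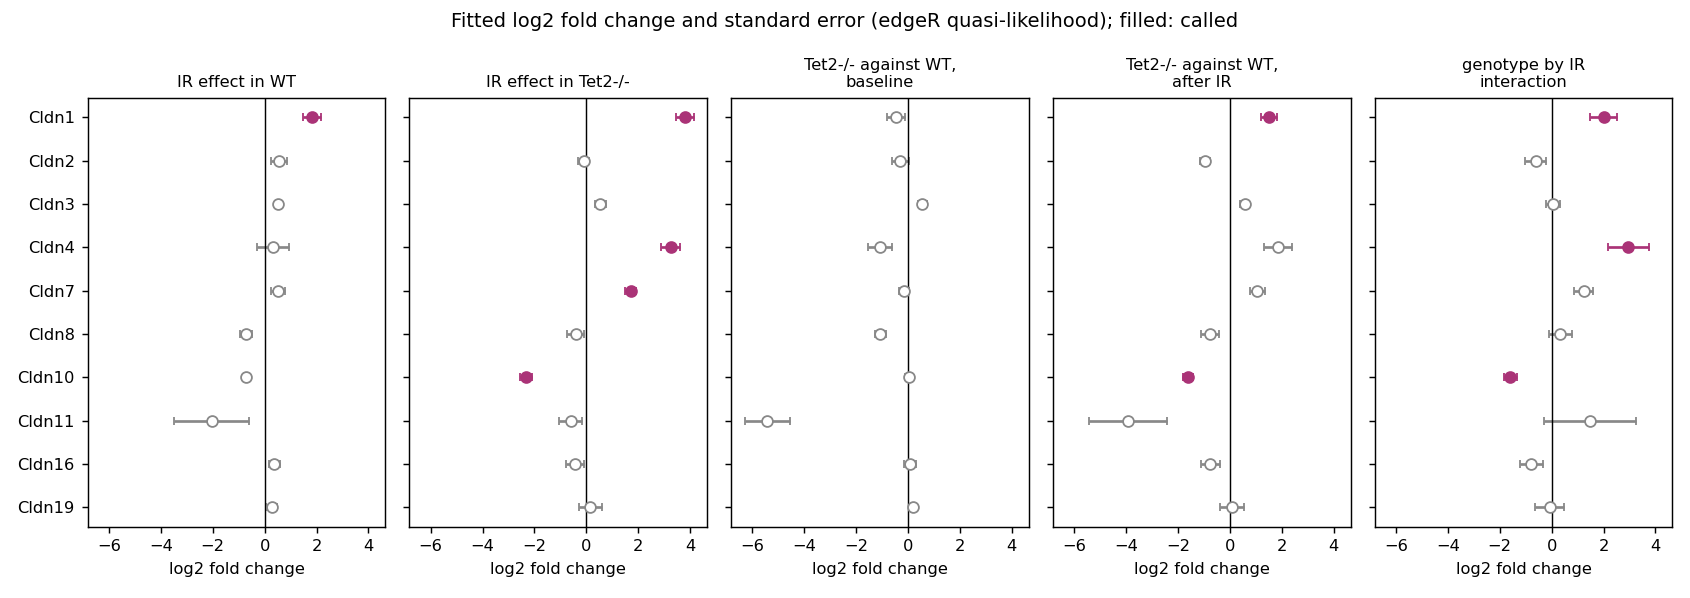
Fitted log2 fold change (horizontal axis) with its standard error for each claudin in the 4 comparisons and the interaction, filled where called. The points of Cldn1 and Cldn4 lie furthest right in the IR effect of the libraries labelled Tet2-/-, at 3.80 and 3.24, and Cldn10 lies left at −2.34.

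The promoters of the 3 genes that rose together in the libraries labelled Tet2-/- are shown so that their letters can be compared. Each run is the 250 bases before the start of the deposited row, read from mm9, 5′ to 3′ on the strand of the gene. Capitals mark TGACTCA, the site of AP-1 factors, and CACCTG or its reverse complement CAGGTG, an E-box bound by Snail and Zeb repressors. Cldn1 is at chr16:26371926-26372175 on the minus strand, Cldn4 at chr5:135422805-135423054 on the minus strand and Cldn7 at chr11:69778673-69778922 on the plus strand.
Cldn1: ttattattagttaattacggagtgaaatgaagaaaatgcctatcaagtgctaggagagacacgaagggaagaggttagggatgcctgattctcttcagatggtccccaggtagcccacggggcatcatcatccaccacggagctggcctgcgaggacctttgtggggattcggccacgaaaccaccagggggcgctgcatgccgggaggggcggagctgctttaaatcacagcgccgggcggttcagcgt
Cldn4: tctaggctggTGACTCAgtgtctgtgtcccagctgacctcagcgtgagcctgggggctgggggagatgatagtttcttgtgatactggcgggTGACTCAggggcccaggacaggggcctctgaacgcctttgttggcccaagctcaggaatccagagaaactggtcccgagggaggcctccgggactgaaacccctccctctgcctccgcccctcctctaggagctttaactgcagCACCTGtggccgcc
Cldn7: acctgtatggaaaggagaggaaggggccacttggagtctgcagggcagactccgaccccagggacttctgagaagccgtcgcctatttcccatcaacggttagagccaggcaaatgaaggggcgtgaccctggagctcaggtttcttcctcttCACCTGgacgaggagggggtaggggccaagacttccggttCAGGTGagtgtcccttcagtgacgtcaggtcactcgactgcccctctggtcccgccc
TGACTCA was found in the Cldn4 window only, where it occurs at 240 and again at 158 bases before the start. Among 27293 distinct windows of the same length before the starts of all deposited rows, 4.08% held it at least once on either strand and 0.128% at least 2 times. CACCTG or its reverse complement was found once in the Cldn4 window and 2 times each in the Cldn7 and Cldn8 windows. Among all windows 17.1% held it at least once and 2.13% at least 2 times. Cldn1 held neither. TATAAA was found in the Cldn2 window, 35 bases before the start, as in 11.6% of all windows. CCAAT or its reverse complement was found in the windows of Cldn8, Cldn11 and the upstream start of Cldn10, as in 34.5% of all windows.

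Cldn10 was the member with the most rows, and they begin at different first exons. Of its 6 rows on chromosome 14 of mm9, 4 start upstream at 119187093 and 2 start downstream at 119254172, and all end at 119273747 and share their later exons. All 6 fell in the IR libraries labelled Tet2-/-, with log2 fold changes from −2.36 to −2.17 and edgeR adjusted p values up to 0.000507. Between genotypes after IR they ran from −1.64 to −1.34 (edgeR adjusted p up to 0.0233) and all 6 were called, as in the interaction. In WT kidneys they ran from −0.87 to −0.68 and none passed the fold limit. Row NM_023878 (upstream) was at 22.6, 35.6 and 19.1 FPKM in Tet2-/- IR libraries and row NM_021386 (downstream) at 34.1, 41.2 and 18.3 FPKM. Since the rows share most of their sequence, they are not separate measurements.

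**Figure D4:**
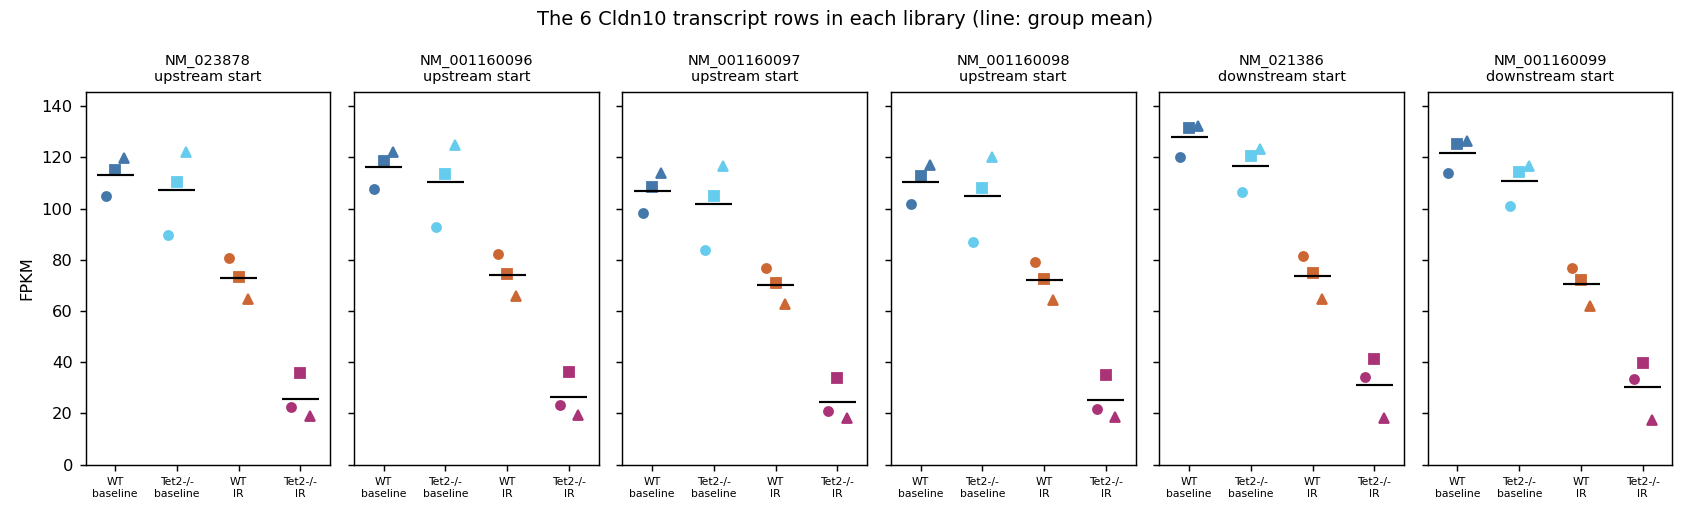
FPKM (vertical axes) of the 6 Cldn10 rows in the 4 groups, with symbols for replicates and a line at the mean, 4 rows from the upstream and 2 from the downstream start. Every row is lowest in the IR libraries labelled Tet2-/-, for example at 18.3 to 41.2 FPKM for NM_021386.

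Subtracting the downstream from the upstream row cancels the shared exons and leaves the counts of the upstream first exon less those of the downstream one. These counts are not scaled for length, and the upstream row is 240 bases longer. A positive difference therefore does not show that the upstream start was used more. In FPKM, row NM_021386 (downstream) lay above row NM_023878 (upstream) in every library except Tet2-/- IR replicate 3. As a percentage of the upstream row, the difference in counts was 8.82, 9.01 and 11.9 in WT baseline replicates 1, 2 and 3 and 5.28, 13.1 and 19.6 in Tet2-/- baseline libraries. It was 19.6, 18.5 and 20.2 in WT IR libraries, above all WT baseline libraries. In Tet2-/- IR libraries it was −20.3, 7.82 and 23.5, so that replicate 1 alone had more counts on the downstream first exon and the group spanned all the others. Only the difference can be had from these rows, not the level of either first exon. The windows before both starts are shown because they differ in CpG content, with each CG in capitals. The upstream window is at chr14:119186843-119187092 and the downstream one at chr14:119253922-119254171, both on the plus strand of mm9.
Cldn10 upstream: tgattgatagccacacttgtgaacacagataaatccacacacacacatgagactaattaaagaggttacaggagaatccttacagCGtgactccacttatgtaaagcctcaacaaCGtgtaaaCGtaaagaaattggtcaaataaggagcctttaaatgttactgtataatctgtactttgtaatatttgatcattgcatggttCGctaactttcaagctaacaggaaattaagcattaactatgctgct
Cldn10 downstream: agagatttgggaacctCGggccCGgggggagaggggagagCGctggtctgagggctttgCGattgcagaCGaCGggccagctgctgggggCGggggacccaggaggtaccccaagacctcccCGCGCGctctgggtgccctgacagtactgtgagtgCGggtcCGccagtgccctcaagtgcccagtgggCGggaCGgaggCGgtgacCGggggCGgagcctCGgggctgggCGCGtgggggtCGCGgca
The upstream window holds 4 CpG sites and 36.0% G and C bases, and the downstream window 22 CpG sites and 72.4%. The median over all windows was 9 CpG sites. Over the other members the count ran from 0 in Cldn8 to 19 in Cldn11, with 14 in Cldn1, 7 in Cldn4 and 10 in Cldn7. No methylation was measured in these libraries.

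To set each claudin against its own segment, its log2(FPKM + 0.1) was compared with the mean of the marker list of that segment. The lists themselves moved. Of 14 proximal tubule markers, which include the transporters Slc34a1 and Slc22a8, edgeR called 2 lower by IR in WT and 11 lower in the libraries labelled Tet2-/-, and 6 lower between genotypes after IR. For the 10 thick ascending limb markers these counts were 1, 5 and 0, and for the 15 collecting duct markers 0, 3 and 1. Over all genes 0.887%, 11.6% and 3.85% were called lower in these comparisons. No marker of these 3 lists was called higher.

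Cldn2 had a higher ratio to its markers in IR libraries. Its log2 ratio to the proximal tubule markers was −1.31 ± 0.44 (SD, n = 3) at WT baseline and 0.06 ± 0.17 in WT IR libraries, and −1.53 ± 0.37 and 0.43 ± 0.23 in those labelled Tet2-/-, with no overlap in either genotype. Cldn10 relative to the proximal tubule markers overlapped between groups, at −1.49 ± 0.19 and −1.47 ± 0.33 in WT and −1.47 ± 0.20 and −1.78 ± 0.58 in the libraries labelled Tet2-/-. Relative to the thick ascending limb markers it was 1.40 ± 0.54, 1.17 ± 0.15, 1.33 ± 0.44 and 0.59 ± 0.65 in the same order, and the groups overlapped. The IR groups did not overlap for the level of Cldn10 but overlapped for both ratios.

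Cldn16 relative to the thick ascending limb markers was higher without overlap in the IR libraries of both genotypes, going from −2.76 ± 0.27 to −1.90 ± 0.31 in WT and from −2.77 ± 0.10 to −1.68 ± 0.24 in the libraries labelled Tet2-/-. Its own level was 5.58 ± 2.68 FPKM in the latter, where replicate 3 was lowest at 2.76 FPKM. Cldn19, its partner in the pore, was at 20.6, 11.98 and 4.77 FPKM in the same 3 libraries, and its ratio went without overlap from −2.19 ± 0.30 to −0.64 ± 0.47. Row NM_001038590 of Cldn19 was at 33.3, 18.8 and 6.57 FPKM there. Tet2-/- IR replicate 3 was thus the lowest of the 3 for both genes, as for the segment's markers.

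Relative to the collecting duct markers, Cldn4 went from 0.15 ± 0.60 to 0.55 ± 1.15 in WT and from −0.70 ± 0.46 to 3.28 ± 0.72 in the libraries labelled Tet2-/-. Cldn7 went from −0.65 ± 0.06 to 0.05 ± 0.67 and from −0.61 ± 0.21 to 1.76 ± 0.22, and Cldn3 from −0.62 ± 0.11 to 0.18 ± 0.26 and from 0.13 ± 0.04 to 1.33 ± 0.46. Cldn8 was lower without overlap at baseline in the libraries labelled Tet2-/-, where its ratio was 0.42 ± 0.33 in WT and −0.41 ± 0.09 in the others, and it was −0.02 ± 0.43 and −0.27 ± 0.31 after IR. Cldn1 relative to the other 7 parietal cell markers was 0.11 ± 0.72, 1.501 ± 0.36, −0.06 ± 0.62 and 2.62 ± 0.73 in WT baseline, WT IR, Tet2-/- baseline and Tet2-/- IR libraries. Each ratio here with groups that did not overlap had an exact permutation p of 0.1, the smallest possible (0.229 adjusted over 48 tests).

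**Figure D5:**
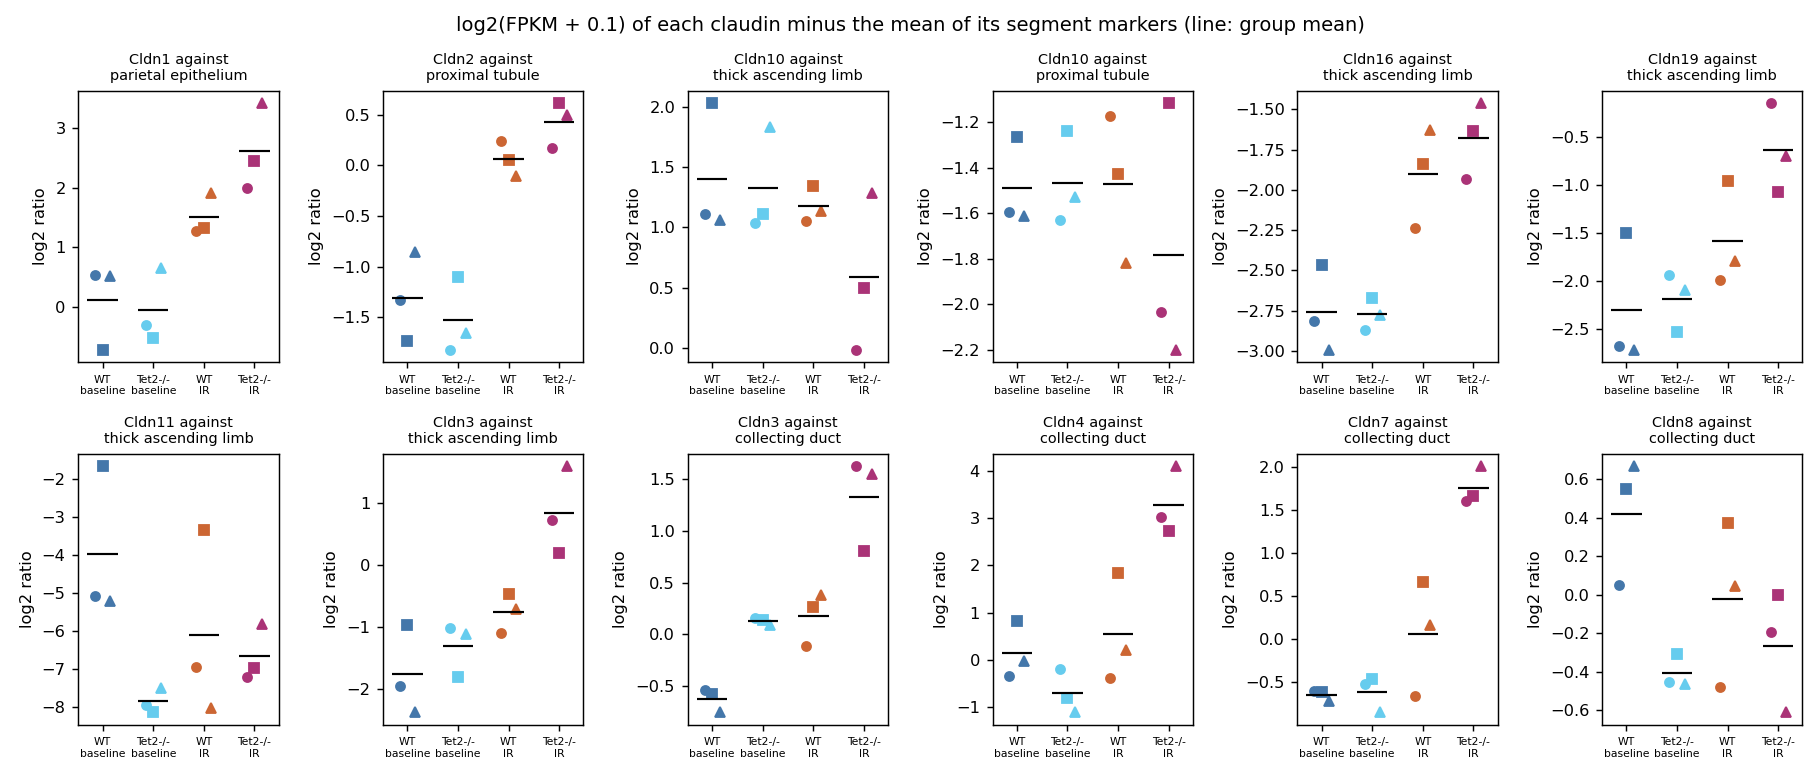
Log2 ratio of each claudin to the mean of its segment markers (vertical axes) in the 4 groups, with symbols for replicates and a line at the group mean. Cldn2 against proximal tubule markers lies higher in all 6 IR libraries than in all baseline libraries, and Cldn10 against the same markers overlaps between all groups.

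Markers of other cells moved beside some of these changes, and their part in the results was not tested. The summed FPKM of 12 genes of injured tubules, among them Havcr1 and Lcn2, was 291 to 605 at baseline, 1831 to 8150 in WT IR and 12580 to 26543 in Tet2-/- IR libraries. All 12 had a positive log2 fold change by IR in both genotypes. EdgeR called 7 in WT and 11 in the libraries labelled Tet2-/-, where 1.46% and 12.7% of all genes were called higher. WT IR replicate 2, the library with high Cldn4 and Cldn7, had the highest sum of the WT IR libraries. The summed FPKM of 10 neutrophil genes was 0.675 to 3.15 at baseline, 4.13 to 9.44 in WT IR and 74.8 to 132 in Tet2-/- IR libraries. The 8 urothelium genes summed to 19.98 to 46.5 FPKM in WT and 1.96 to 9.75 FPKM in Tet2-/- baseline libraries, which were below without overlap, as Cldn8 and Cldn11 were. After IR they summed to 90.8 to 164 and 278 to 462 FPKM. Krt20, which is also in the injured tubule list, was at 26.6 to 151 and 261 to 436 FPKM of this, while Upk3a was at 2.67 to 10.8 and 1.79 to 3.14 FPKM. The 9 genes of testis and Sertoli cells in the tables, a list taken because Cldn11 is best known from there, summed to 32.6 to 65.1 FPKM at baseline, 170 to 362 FPKM in WT IR and 453 to 1489 FPKM in Tet2-/- IR libraries. Clu, which is also in the injured tubule list, was at 30.4 to 63.0 FPKM of this at baseline and at 168 to 1482 FPKM after IR. Sox9 was at 0.045 to 5.43 FPKM and Inha at 0.446 to 1.73 FPKM over all libraries, while Fshr was listed at 0 and Dmrt1 was at 0.002 FPKM or less. Wt1, which is not in this list but in that of fibroblasts and mesothelium, was at 0.13 to 3.64 FPKM. The summed FPKM of 8 Schwann cell genes was 8.86 to 15.1, 7.73 to 8.85, 4.43 to 10.9 and 7.72 to 17.1 in WT baseline, Tet2-/- baseline, WT IR and Tet2-/- IR libraries.

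Of the other claudins, 18 of 21 symbols sought were in the tables and 7 had a mean of at least 1 FPKM in any group. Cldn12 (10.6 to 17.6 FPKM over all libraries), Cldn15 (2.54 to 15.3 FPKM), the related Cldnd1 (7.34 to 17.1 FPKM) and Cldn5, the claudin of endothelium (1.39 to 11.6 FPKM), were not called by edgeR in any comparison, and neither was Cldn6, at 0.254 to 1.67 FPKM. Cldn14, which blocks the Cldn16 pore, rose by IR in the libraries labelled Tet2-/- with 0.167 ± 0.089 FPKM at baseline and 1.22 ± 0.81 FPKM after IR (SD, n = 3), for a change of 2.56 on the log2 scale (SE 0.69, edgeR adjusted p = 0.0204). This call was lost without Tet2-/- baseline replicate 1 or 3 or Tet2-/- IR replicate 1 (log2 fold changes of 2.34, 2.37 and 2.07). Cldn9 fell there from 0.905 ± 0.223 to 0.226 ± 0.085 FPKM (log2 fold change −2.27, SE 0.39, edgeR adjusted p = 0.00331). One more call, Cldn18 at −1.76 (SE 0.46, edgeR adjusted p = 0.0177), lies outside the rule for named genes and was named after its values were seen. On the log2(FPKM + 1) scale Cldn14 and Cldn9 were at 0.85 and −0.63, under the fold limit. By IR in WT kidneys Cldn14 had a log2 fold change of 2.35 (SE 0.94, edgeR adjusted p = 0.196) and Cldn9 one of −1.54 (SE 0.32, adjusted p = 0.0545). The IR effects of the genotypes were not shown to differ, with interactions of 0.24 for Cldn14 and −0.69 for Cldn9 (edgeR adjusted p = 0.924 and 0.373).

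Among 36 junction partners tested, edgeR called 11 higher and 1 lower by IR in the libraries labelled Tet2-/-, where 12.7% and 11.6% of all genes were. It called 0 by IR in WT kidneys, 0 between genotypes at baseline and 0 after IR, where 13, 8 and 14 had an unadjusted p under 0.05 and DESeq2 called 2, 2 and 0. The shares of all genes by these last measures are not set beside the counts, which therefore describe the list alone. The median log2 fold change of the partners by IR in the libraries labelled Tet2-/- was 0.47, against 0.04 over all genes. Amot, a junction protein of the polarity complex, rose by 1.43 on the log2 scale (SE 0.25, edgeR adjusted p = 0.00355), with 2.93 ± 0.269 FPKM at baseline and 9.35 ± 2.72 FPKM after IR (SD, n = 3). In the interaction 3 of the 36 partners were higher and 1 lower, against 3.79% and 5.39% of all genes. Among them Tjp1, a scaffold that anchors claudins to actin, was at 1.11 (SE 0.28, edgeR adjusted p = 0.0325), which was lost on leaving out 9 of the 12 libraries in turn, with edgeR adjusted p values up to 0.0905. The 1 partner with a lower call in both was Prkcz, a polarity kinase, at −1.16 (SE 0.17, edgeR adjusted p = 0.00152) and −0.81 (SE 0.20, adjusted p = 0.0335), which was named after its values were seen.

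Tested next were 19 transcription factors, kinases and ion sensors linked to claudins or their ions. EdgeR called 2 higher and 0 lower by IR in the libraries labelled Tet2-/-, where 12.7% and 11.6% of all genes were. It called 0 by IR in WT kidneys and 0 between genotypes at baseline and after IR. There 3, 4 and 5 had an unadjusted p under 0.05 and DESeq2 called 1, 1 and 2. These counts too have no share of all genes beside them and describe the list alone. Grhl1, a factor of epithelial barrier genes, had 0.191 ± 0.064 FPKM at baseline and 0.795 ± 0.155 FPKM after IR (SD, n = 3), for a change of 1.79 on the log2 scale (SE 0.32, edgeR adjusted p = 0.00391). On the log2(FPKM + 1) scale it was at 0.59, under the fold limit. Trpv5, the calcium channel of the distal tubule, went from 1.26 ± 0.412 to 5.23 ± 2.56 FPKM (log2 fold change 1.77, SE 0.42, edgeR adjusted p = 0.0128). The interaction of Grhl1, 1.97 (SE 0.52, edgeR adjusted p = 0.0383), was lost on leaving out 8 of the 12 libraries in turn.

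The genes most like each claudin over the 12 libraries were found by Pearson's r of log2(FPKM + 1) among 12213 genes with a mean of at least 1 FPKM. The points share the group differences and the libraries' composition, so r is a description. For Cldn1 these were Cops3, Eif6 and Hars (r from 0.984 to 0.987), for Cldn4 Zbtb42, Vopp1 and Ampd3 (0.975 to 0.987) and for Cldn7 Itpr3, Relb and Pea15a (0.981 to 0.985). Cldn10 was most like Slc4a1, Gatb and Uros (0.980 to 0.983), Cldn2 most like Epb41l5, Stard4 and Rcbtb2 (0.948 to 0.965) and Cldn3 most like Als2cl, Ssh3 and Nat10 (0.952 to 0.962). Cldn16 was most like Slc5a1, Sostdc1 and Dusp9 (0.912 to 0.944), Cldn8 most like Caap1, Tfdp2 and Mras (0.906 to 0.921) and Cldn19 most like Chd1, Brpf3 and Bcorl1 (0.869 to 0.888). For Cldn11 they were Aldh1a3, Crabp2 and Wnt9b (0.948 to 0.966). With the group means taken out, r was lower for the Cldn1 genes, at 0.687 to 0.832, and 0.898 to 0.941 for those of Cldn16.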

How the data were processed

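The study measured RNA of whole kidneys from WT and Tet2-/- mice at baseline and after ischemia-reperfusion (IR) with RNA-seq, 3 libraries per group, grouped by the labels. According to its methods and processing notes, the authors used STAR for alignment to mm9, HOMER for counting over RefSeq transcripts and edgeR. The authors deposited read counts, not normalized, together with FPKM for each row. Of the deposited counts 36.0% were not whole, in steps of 0.5, whereas the design had assumed whole counts, so they were handled here like expected counts and rounded before testing. Reads shared by the rows of a gene are counted in each, so the row with the highest total stood for each symbol. Whether counting used strand is not given in the sources used here.

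Here, libraries of each comparison were filtered with filterByExpr, scaled by TMM and tested with the quasi-likelihood test of edgeR 4.0.16 in R 4.3.3, and p values were adjusted by Benjamini-Hochberg over every gene in the comparison. A call needed an adjusted p under 0.05 and, except in the interaction, a log2 fold change beyond 1 in either direction. Shares and ratios (log2(FPKM + 0.1)) were tested with exact two-sided permutation tests. DESeq2 1.42.0 and limma 3.58.1 served for alternatives, besides other scalings and filters, a fit over all 12 libraries, an adipocyte covariate and leaving out each library, and figures were drawn with matplotlib 3.10.9. Windows of 250 bases before each start were read from the mm9 genome. The scripts were tested on simulated data. Members, lists and rules were chosen with earlier results of these data known. The text names all members, every Cldn10 row, other claudins with a mean of at least 1 FPKM in any group, up to 3 called partners or regulators with the largest change per comparison, and the 3 genes most like each member. Some genes that this rule names are not reported here. Library totals, given with the results, set the precision, and depth alone gives no error between mice. The labels do not tie libraries to animals, so p values measure the spread between these libraries.

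Deviations from the group means correlated between baseline and IR libraries of the same number, at 0.349, 0.349 and 0.344 for WT and at 0.12, 0.35 and 0.202 for Tet2-/-. A replicate block was therefore an alternative, with this correlation as its single source. The study's methods describe separate mice for baseline and for IR, so a shared number is not a pair of animals.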

Additional observations from a re-analysis of the deposited data

Results flagged for a closer look

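By edgeR's quasi-likelihood test of the interaction over all 12 libraries, 3 claudins were called, where 3.79% of all genes were higher and 5.39% lower. The log2 IR effect was higher in the libraries labelled Tet2-/- by 1.999 for Cldn1 and by 2.96 for Cldn4. Each of these calls was lost on leaving out 9 of the 12 libraries in turn. For Cldn10 the interaction was −1.60, and its call held with each library left out. Its IR effect was −0.70 in WT and −2.34 in the libraries labelled Tet2-/-.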

How the results depend on the processing

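By IR in WT kidneys edgeR called 1 claudin, against 2 without the fold limit, 2 with the replicate block and 0 with the adipocyte covariate, and 0 to 1 with a library left out. The block grouped libraries of different mice by their number alone, and it added Cldn11 (−3.00). By IR in the libraries labelled Tet2-/- 4 were called under every alternative. At baseline 0 were called, against 2 with DESeq2 and 2 with the exact test (Cldn8 and Cldn11), and 0 to 1 with a library left out, where Cldn11 passed without WT baseline replicate 2 (−3.95, edgeR adjusted p = 0.0123). After IR 2 were called, against 5 with DESeq2, 5 with the exact test, 4 over all 12 libraries and 1 to 4 with a library left out. The interaction gave 3, and 1 to 4 with a library left out. In the interaction Cldn7 was called as well with DESeq2 (1.19), limma on log2(FPKM + 1) (1.41) and on log2(FPKM + 0.1) (1.47), the replicate block within each genotype (1.32) and without WT IR replicate 2 (1.59). Between genotypes after IR Cldn7 passed with the replicate block (1.11). There too the libraries share only a number. Same-numbered libraries of the genotypes correlated at −0.173 to 0.303 over baseline and IR. How many of all genes each alternative called is not given here, so the added claudin calls have no share beside them. The cause of these changes was not tested.

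Small log2 fold changes turned sign. Cldn19 by IR in Tet2-/- was −0.055 with the block. Cldn2 there was 0.13 with library sizes alone and 0.18 and 0.18 in limma on log2(FPKM + 1) and log2(FPKM + 0.1). At baseline Cldn10 was −0.056, −0.0844 and −0.0852 under those 3 settings and −0.0144 over all 12 libraries, Cldn16 was −0.0209 and −0.0252 in limma, and Cldn2 was 0.009 with the adipocyte covariate. After IR Cldn19 was −0.011 in limma with 0.1 and −0.12 with the block. In the interaction Cldn19 was 0.0612 with library sizes alone and Cldn3 was −0.0206 over all transcript rows. With a library left out, Cldn4 ran from −0.59 to 0.86 by IR in WT. Cldn19 ran from −0.47 to 0.52 and Cldn2 from −0.28 to 0.0179 by IR in Tet2-/-. At baseline Cldn10 ran from −0.094 to 0.15, Cldn16 from −0.13 to 0.21 and Cldn2 from −0.57 to 0.093. After IR Cldn19 ran from −0.52 to 0.45. In the interaction Cldn11 ran from −0.0287 to 4.58, Cldn19 from −0.70 to 0.29, Cldn3 from −0.16 to 0.23 and Cldn8 from −0.0939 to 0.64. With library sizes alone the median of all genes moved from 0.04 to 0.27 by IR in Tet2-/-. In 18 of 40 share comparisons and 21 of 48 ratio comparisons the groups did not overlap, and with a library left out these counts were 18 to 22 and 21 to 25. Leaving out a library cannot make separated groups overlap, so these counts could not fall and do not test the separation.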
